A study of Mus musculus with 20 samples.

Results

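The genes described here code for the antigen receptor complex of T lymphocytes and its co-receptors: Cd3d, Cd3e, Cd3g, Cd4, Cd8a, Cd8b1, Cd2, Cd5 and Lck. Members were taken by name, as every probe other than controls whose gene name in the array files, or current symbol through its accession, is one of these 9 symbols. They came to 14 probes of 9 genes, out of 41174 probes of 28786 genes on the array. Liver and white adipose tissue (WAT) had been taken from male C57BL/6 mice aged 7 months, all kept for 21 weeks on a high-fat diet (HFD) with 35% fat, and total RNA of each sample was read on 1 single-dye Agilent mouse array. The 4 groups were WT(HFD) liver, CD44KO(HFD) liver, WT(HFD) WAT and CD44KO(HFD) WAT, with 5 arrays each. WT(HFD) mice were wildtype. CD44KO(HFD) mice, of a line backcrossed to C57BL/6J by the study's methods, lacked Cd44 in the whole body, so the gene was missing from the T cells as well as from every other cell of each tissue, and no group on a normal diet was read. The diet and the age were common to all 4 groups. The study's methods give n = 5 for the mice of the arrays, and nothing in the labels says that a liver array and a WAT array of one number came from one mouse. The fat depot was not stated for the arrays.

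T cells recognise antigen through a receptor whose variable chains have almost no part inside the cell. The signal is passed on by the CD3 chains delta, epsilon and gamma, coded by Cd3d, Cd3e and Cd3g. Helper T cells carry the co-receptor CD4 and cytotoxic T cells carry CD8, a pair of chains coded by Cd8a and Cd8b1, and both co-receptors bring the kinase Lck to the receptor. CD2 is an adhesion receptor of T and NK cells, and CD5 is a surface receptor of T cells and of some B cells that dampens receptor signalling. T cells, cytotoxic ones in particular, are known to gather in adipose tissue and liver of obese mice. In RNA from a whole tissue, fewer T cells and less of these transcripts per cell cannot be told apart.

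The probes carry sequences of 60 bases and are printed here for the genes on which the results turn, since probes of one gene gave different readings. Positions are those in the files, in build mm7, and no annotation of that build was used, so exons, introns and UTRs are not named. Cd8a was read by 3 probes and Cd8b1 by 2. The Cd8b1 probe with the larger genotype difference (A_51_P150433, chr6:71355005-71355063, plus strand) is shown by its bases 31 to 60, with the letters AATAAA, the usual signal for the end of a transcript, in capitals. The other Cd8b1 probe (A_52_P511269) lies on another chromosome, at chr5:114364254-114364313 on the minus strand, and is shown by its bases 1 to 30. The Cd8a probes lie on the plus strand at chr6:71395267-71395326 (A_51_P345121, bases 1 to 30 shown), chr6:71396848-71396907 (A_52_P443334, bases 1 to 30 shown) and chr6:71391822-71391881 (A_52_P150547, whole).
Cd8b1, A_51_P150433: cagagaagccacctcatgAATAAAagtttt
Cd8b1, A_52_P511269: gccatgatccagggaatgaaaagaaatttg
Cd8a, A_51_P345121: ttaggtatgtgtctttagtatagcatgctt
Cd8a, A_52_P443334: cctgaaggaactaagagtcacccatggtcc
Cd8a, A_52_P150547: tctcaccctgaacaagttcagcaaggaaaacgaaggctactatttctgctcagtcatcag
The probes of Cd3d (chr9:44920433-44920664, plus strand) and Cd3g (chr9:44907978-44908562, minus strand) are shown whole, because each spans more of the genome than its own 60 bases, by 172 bases for Cd3d and 525 for Cd3g, and so read spliced RNA rather than an unspliced gene.
Cd3d, A_51_P285206: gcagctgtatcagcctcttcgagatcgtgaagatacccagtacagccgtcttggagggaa
Cd3g, A_51_P260889: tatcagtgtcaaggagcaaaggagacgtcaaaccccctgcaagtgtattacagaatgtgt
The single Cd2 probe also crosses a gap, spanning 3180 bases at chr3:101074696-101077875 on the minus strand. Lck was read at chr4:128993249-128993308 on the minus strand. The position given for Cd5, chr19:10398252-10398270, covers only 19 bases of its probe.

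Cd3d, Cd3g, Cd8a, Cd5 and Lck, all called lower in CD44KO(HFD) liver, were among the 6 of 9 genes with a promoter in the RefSeq table (GRCm38.p6, another build than that of the files). The 250 bases before the start of Cd3d, Cd3g and Cd8a and of the inner start of Lck are printed, the first pair because these genes start 1355 bases apart on opposite strands. Capitals mark AGGAAG or its reverse complement CTTCCT, a core of sites for ETS factors, which are abundant in lymphocytes.
Cd3d, chr9:44981536-44981785, plus strand: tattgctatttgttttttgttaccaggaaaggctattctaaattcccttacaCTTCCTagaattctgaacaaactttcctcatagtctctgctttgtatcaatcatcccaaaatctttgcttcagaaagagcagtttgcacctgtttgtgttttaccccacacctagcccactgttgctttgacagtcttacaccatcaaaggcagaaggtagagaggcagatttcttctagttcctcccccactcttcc
Cd3g, chr9:44980432-44980681, minus strand: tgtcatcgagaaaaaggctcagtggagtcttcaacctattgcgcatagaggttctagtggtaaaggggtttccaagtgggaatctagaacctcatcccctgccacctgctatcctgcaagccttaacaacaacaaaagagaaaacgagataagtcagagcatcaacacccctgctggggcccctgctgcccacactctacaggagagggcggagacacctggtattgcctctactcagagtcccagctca
Cd8a, chr6:71373177-71373426, plus strand: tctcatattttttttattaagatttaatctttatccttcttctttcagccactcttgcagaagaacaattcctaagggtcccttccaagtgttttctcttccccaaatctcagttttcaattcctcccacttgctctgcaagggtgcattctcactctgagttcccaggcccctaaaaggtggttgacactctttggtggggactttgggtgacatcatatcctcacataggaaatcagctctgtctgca
Lck, chr4:129558373-129558622, minus strand: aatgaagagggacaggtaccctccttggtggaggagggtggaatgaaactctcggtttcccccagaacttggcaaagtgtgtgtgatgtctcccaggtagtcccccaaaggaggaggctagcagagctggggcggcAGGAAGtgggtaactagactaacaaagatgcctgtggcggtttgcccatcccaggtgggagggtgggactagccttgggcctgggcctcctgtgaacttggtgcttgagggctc
On either strand, AGGAAG was found in 5 of the 7 windows of these genes (2 of Lck and 1 each of Cd3d, Cd3e and Cd5), against 29.5% of all 32851 promoter windows in the table. The RUNX core TGTGGT was in 1 of 7 (the outer start of Lck), against 14% of all, and the E-box CAGCTG and the TATA box TATAAA were in none of the 7, against 13% and 12.4%. The GC box GGGCGG was in 2 of 7 (Lck and Cd3g), against 32.7%. These motifs do not overlap one another in their letters, and a match describes the letters of a window only.

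Every value is a log2 signal relative to the 75th percentile of its own array, so that 0 stands for that percentile and a difference of 1 for a doubling. That percentile was a processed signal of 432.7 to 574.6 on liver arrays and of 1541 to 2792 on WAT arrays. Liver arrays were read on one scanner and WAT arrays on another, so tissue and scanner cannot be told apart. The scanner software marks spots that stand well above background, and it did so for 57.4% to 61.9% of spots in liver and for 63.2% to 69.5% in WAT, apart from the array of WT(HFD) WAT replicate 1 with 89.5%. That array also had a higher background surface (173, against 73 to 86.2 on the other WAT arrays), and WAT differences are also given without it and replicate 5, and counts of calls without it alone. The brightest Cd44 probe, A_52_P229536, matched the labels on all arrays: WT(HFD) and CD44KO(HFD) livers read 0.48 ± 0.28 and -3.74 ± 0.41 (SD, n = 5) (limma, adjusted p = 6.65e-06), and WAT read 4.07 ± 0.37 and -0.51 ± 0.13 (limma, adjusted p = 7.64e-06). It was still well above background on 3 CD44KO(HFD) livers and 5 CD44KO(HFD) WAT arrays. Cd44 probe A_52_P523459 differed by -4.57 in liver and -4.28 in WAT. The dim Cd44 probe A_51_P407053, well above background on 3 WT(HFD) and 2 CD44KO(HFD) livers, differed by 0.20 in liver (limma, adjusted p = 0.888). The hepatocyte gene Alb was at 10.25 ± 0.15 in WT(HFD) liver and the adipocyte gene Adipoq at 6.57 ± 0.41 in WT(HFD) WAT (SD, n = 5).

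In liver, T cell receptor and CD8 transcripts were lower in CD44KO(HFD) than in WT(HFD) mice. Of the 14 probes, 11 were bright enough to test, and 7 probes of 6 genes (Cd3d, Cd3g, Cd8a with 2 probes, Cd8b1, Cd5 and Lck) fell at an adjusted p under 0.05, while 0 rose. Across all 24689 probes tested in liver 13.6% were called, 5.75% as lower and 7.85% as higher. The largest differences were those of a Cd8a and a Cd8b1 probe, at least 4.1-fold lower for A_51_P345121 and 3.4-fold for A_51_P150433. The other called genes fell between 1.76-fold and 2.06-fold. For the other called Cd8a probe, A_52_P443334, the bound was 1.77-fold, within that range. Both bounds hold for the processed signal, and the normexp correction described below gave a smaller difference for A_51_P345121. Cd3e, Cd4, Cd2 and the second Cd8b1 probe did not pass the test. The median log2 difference of the 11 probes was -0.84, beside 0.08 over all probes tested, 9 of the 11 had a lower mean in CD44KO(HFD), beside 38.7% of all, and 7 were lower by at least 1.5-fold, beside 6.12% of all. Both Cd8a probes entered the test through WT(HFD) alone, and among the 9 probes well above background on all 10 liver arrays 5 fell (Cd3d, Cd3g, Cd8b1, Cd5 and Lck). Among all 21282 probes as bright on all 10 arrays 1337 fell, and 16.7% were called in either direction. Each of the 7 called probes had no overlap between genotypes, which held for 4.22% of all probes in that direction.

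**Figure D1:**
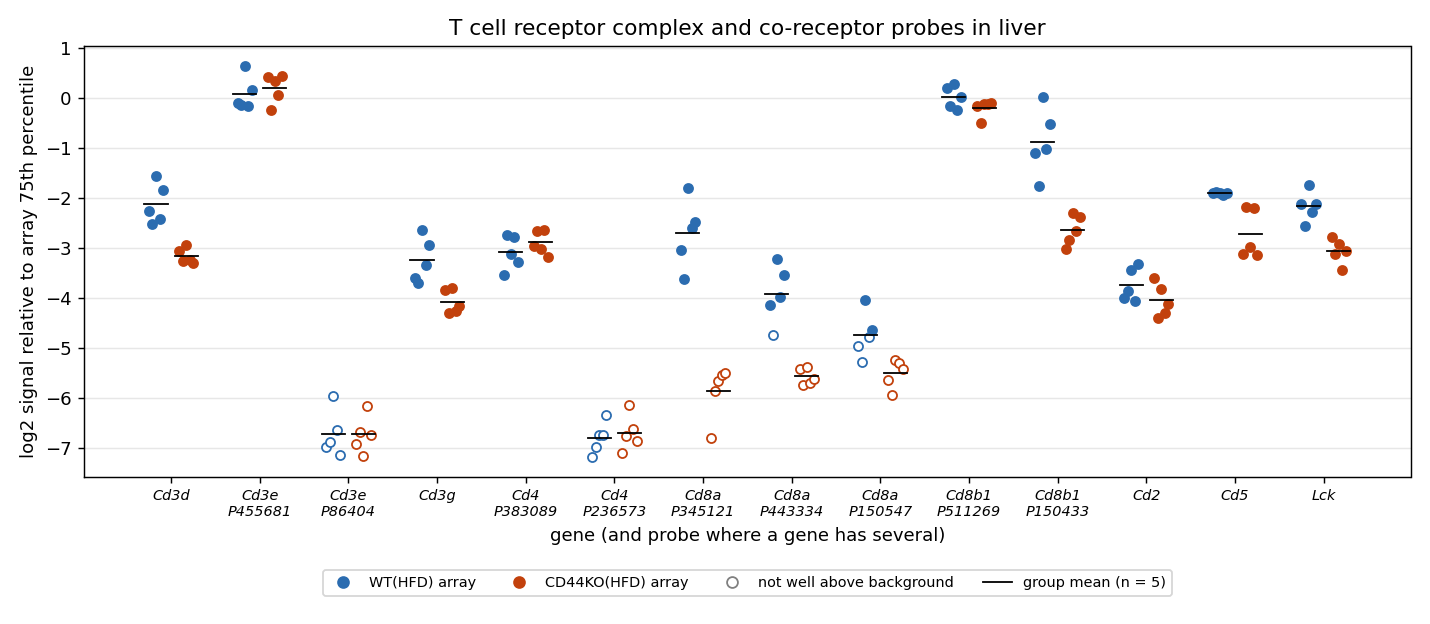
Log2 signal relative to the array 75th percentile (vertical axis) of all 14 probes (horizontal axis) on the 10 liver arrays. Each point is 1 array, open points were not well above background, and the bar is the mean of the 5 arrays of a genotype. CD44KO(HFD) points lie below all WT(HFD) points for 1 probe each of Cd3d, Cd3g, Cd8b1, Cd5 and Lck and for A_51_P345121 and A_52_P443334 of Cd8a, while those of Cd3e, Cd4 and the Cd8b1 probe on chromosome 5 overlap.

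Cd3d, the delta chain, read -2.25, -2.52, -1.56, -2.42 and -1.83 in WT(HFD) liver and -3.06, -3.25, -2.94, -3.24 and -3.30 in CD44KO(HFD) liver. All CD44KO(HFD) values lay below all WT(HFD) values and were closer to each other. The means were -2.12 ± 0.41 and -3.16 ± 0.15 (SD, n = 5), and the log2 difference was -1.04 (SE 0.18, adjusted p = 0.0122, limma). An exact two-sided permutation test over the 252 ways to divide the 10 arrays gave p = 0.00794, the smallest it can give, for Cd3d and for each of the other 6 called probes.

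Cd3g, the gamma chain, read -3.59, -3.69, -2.63, -3.33 and -2.94 in WT(HFD) liver and -3.84, -4.29, -3.80, -4.26 and -4.16 in CD44KO(HFD) liver. The groups lay close, with the lowest WT(HFD) array just above the highest CD44KO(HFD) array. Cd3g differed by -0.84 on the log2 scale (SE 0.21, adjusted p = 0.0288, limma), and this call was lost in 5 of 10 fits that left out 1 array (WT(HFD) replicate 5 or CD44KO(HFD) replicate 1, 2, 4 or 5, highest adjusted p = 0.0701).

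Cd3e, the epsilon chain, did not go with its partners. Its brighter probe (A_51_P455681, chr9:44933516-44933575, minus strand) read -0.10, -0.13, 0.65, -0.16 and 0.16 in WT(HFD) liver and 0.43, -0.24, 0.34, 0.06 and 0.44 in CD44KO(HFD) liver. The arrays of both genotypes were mixed throughout the range. The log2 difference was 0.12 (SE 0.19, adjusted p = 0.69, limma). Its second probe (A_52_P86404, chr9:44938246-44938305, minus strand) was not well above background on any liver array.

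The CD8 alpha chain gave the widest separation, by its brightest probe. Probe A_51_P345121 of Cd8a read -3.03, -3.62, -1.80, -2.59 and -2.48 in WT(HFD) liver, where it was well above background on 5 of 5 arrays. It read -6.80, -5.85, -5.66, -5.54 and -5.49 in CD44KO(HFD) liver, where it was not well above background on any array. The lowest WT(HFD) value was far above the highest CD44KO(HFD) value. In processed signal the WT(HFD) arrays ran from 41.7 through a median of 81.6 to 124, and the CD44KO(HFD) arrays from 4.01 through 10.3 to 12.5.

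Since the CD44KO(HFD) signal was not well above background, only a bound can be given. With each CD44KO(HFD) value raised to the dimmest signal marked well above background on its array, Cd8a fell at least 4.1-fold by probe A_51_P345121 (measured means -2.70 ± 0.68 and -5.87 ± 0.54, SD, n = 5, adjusted p = 0.00296, limma). By the same rule probe A_52_P443334, which passed that mark on 4 WT(HFD) arrays and on 0 from CD44KO(HFD), fell at least 1.77-fold (means -3.92 ± 0.58 and -5.57 ± 0.16, SD, n = 5, adjusted p = 0.0092, limma). The third probe, A_52_P150547, was well above background on 2 of 5 and 0 of 5 arrays and was not tested. Its WT(HFD) values ran from -5.28 to -4.03 and its CD44KO(HFD) values from -5.94 to -5.24, with a slight overlap.

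The CD8 beta chain was bright enough to measure in both genotypes. Probe A_51_P150433 of Cd8b1 read -1.10, -1.75, 0.03, -1.02 and -0.52 in WT(HFD) liver and -3.02, -2.83, -2.29, -2.66 and -2.38 in CD44KO(HFD) liver. No CD44KO(HFD) array reached the lowest WT(HFD) array. The means were -0.87 ± 0.67 and -2.64 ± 0.31 (SD, n = 5), a log2 difference of -1.76 (SE 0.30, adjusted p = 0.0113, limma). In processed signal the WT(HFD) arrays ran from 153 through 268 to 443 and the CD44KO(HFD) arrays from 54.8 through 78.1 to 108.

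The Cd8b1 probe on chromosome 5, A_52_P511269, read 0.20, -0.16, 0.29, -0.24 and 0.02 in WT(HFD) liver and -0.16, -0.50, -0.11, -0.11 and -0.09 in CD44KO(HFD) liver. These values overlapped and stayed within a narrow range. The log2 difference was -0.21 (SE 0.12, adjusted p = 0.263, limma). The probe lies in none of the region of the other 4 CD8 probes, and the nearest other probes on its strand, at distances of 1963 and 4056 bases, belong to Mlec, a carbohydrate-binding protein of the endoplasmic reticulum. These Mlec probes differed by -0.36 (A_51_P266668, adjusted p = 0.0726) and -0.39 (A_52_P223571, adjusted p = 0.0478, limma) in liver.

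Lck, the kinase bound by both co-receptors, read -2.11, -2.56, -1.73, -2.28 and -2.11 in WT(HFD) liver and -2.78, -3.11, -2.92, -3.43 and -3.06 in CD44KO(HFD) liver. The groups did not overlap. The log2 difference was -0.90 (SE 0.16, adjusted p = 0.0132, limma). Of the genes called, Cd3d, Cd8a, Cd8b1 and Lck kept an adjusted p under 0.05 whichever single array was left out. In these fits Cd8a was still tested through its WT(HFD) signal alone, with no CD44KO(HFD) value well above background.

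Cd5 read -1.90, -1.87, -1.90, -1.93 and -1.90 in WT(HFD) liver, the narrowest spread of the 14 probes, and -3.12, -2.17, -2.97, -2.20 and -3.13 in CD44KO(HFD) liver. The CD44KO(HFD) values formed a lower trio and a higher pair, and the pair, replicates 2 and 4, shared a slide. The log2 difference was -0.82 (SE 0.20, adjusted p = 0.0285, limma), and -0.29 between the arrays of that slide alone. This call was lost in 6 of 10 fits without 1 array (WT(HFD) replicate 1, 2, 3 or 5 or CD44KO(HFD) replicate 1 or 5, highest adjusted p = 0.0676).

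Cd2 read -3.99, -3.85, -3.44, -4.06 and -3.32 in WT(HFD) liver and -3.59, -4.39, -3.82, -4.30 and -4.12 in CD44KO(HFD) liver. The groups overlapped, and the log2 difference of -0.31 (SE 0.19, adjusted p = 0.293, limma) was within the spread. Cd4, the helper co-receptor, read -3.53, -2.73, -3.11, -2.77 and -3.28 in WT(HFD) liver and -2.95, -2.65, -3.02, -2.64 and -3.17 in CD44KO(HFD) liver by probe A_52_P383089 (chr6:124894079-124894138, minus strand). The highest pair of each genotype came from the same slide, and the log2 difference was 0.20 (SE 0.17, adjusted p = 0.455, limma). This probe was spotted 10 times on each array, and the spots of one liver array spread with an SD of 0.34 to 0.99 on the log2 scale, against 0.34 and 0.23 between the arrays of a genotype. The second Cd4 probe (A_51_P236573, chr6:124891774-124891832, minus strand) was not well above background on any liver array.

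Liver arrays lay on 3 slides, each with both genotypes. On each slide the 7 called probes were all lower in CD44KO(HFD), which follows from their lack of overlap and is no separate evidence. The median log2 difference of the 11 tested probes was -0.77 and -0.88 on the slides with 2 arrays of each genotype and -1.21 on the slide with 1 of each. The calls depended on how background was treated. With a normexp background correction only Cd8b1 stayed past the threshold, at -1.13 (adjusted p = 0.0475, limma), and Cd8a A_51_P345121 differed by -0.60 (adjusted p = 0.352, limma) and Cd3d by -0.41 (adjusted p = 0.34, limma). That correction started from the mean spot signal, used the local background in place of the subtracted surface, and added an offset of 50. On liver arrays the surface exceeded the local background by a median of 13 to 35.5. The median CD44KO(HFD) liver signal of Cd8a A_51_P345121 was 70 with this correction and 10.3 in the processed signal. The part of each step in the lost calls was not tested.

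To set the CD8 beta chain beside other T cell transcripts, the log2 signal of Cd3d, Cd3g, Cd5 or Lck was subtracted from that of Cd8b1 (A_51_P150433) on each array. Genotypes were compared by an exact two-sided permutation test with adjustment over these 4 differences in 2 tissues. The differences were chosen after Cd8b1 was seen to have the larger liver change, so their p-values are no independent test of that ranking. In liver Cd8b1 minus Cd3d was 1.24 ± 0.31 in WT(HFD) and 0.52 ± 0.33 in CD44KO(HFD) (SD, n = 5), a change of -0.72 (exact p = 0.0159, adjusted 0.0423), with a small overlap. Cd8b1 minus Cd3g fell by 0.93 and Cd8b1 minus Lck by 0.86, both without overlap (exact p = 0.00794, adjusted 0.0317). Cd8b1 minus Cd5 differed by -0.95 (exact p = 0.0397, adjusted 0.0794). With normexp the changes were -0.72 for Cd3d, -1.05 for Cd3g, -0.80 for Lck and -0.87 for Cd5, all with an adjusted exact p under 0.05. Without 1 array in turn the change for Cd3d stayed between -0.84 and -0.60, for Cd3g between -1.03 and -0.77 and for Lck between -0.98 and -0.70. The highest adjusted exact p, with 5 against 4 arrays, was 0.0635 for each. An adjusted exact p under 0.05 was kept in 2 of 10 such settings for Cd3d and in 5 of 10 each for Cd3g and Lck. These probes have their own slopes of signal against RNA, so the differences describe unequal changes in signal.

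**Figure D2:**
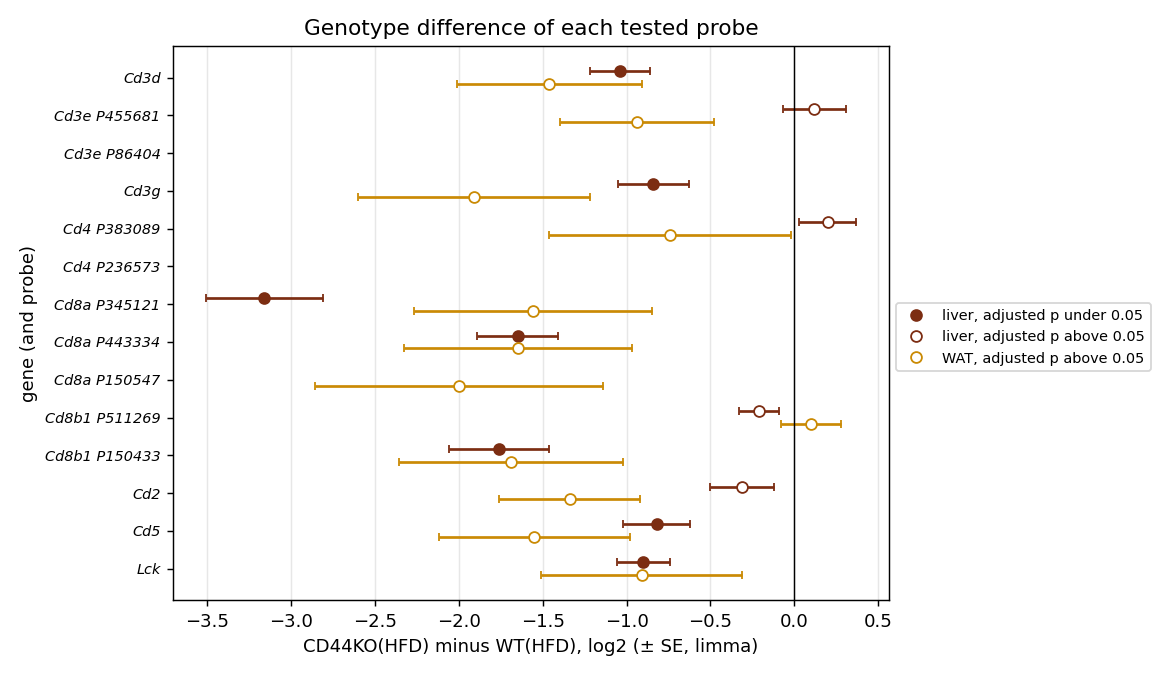
Log2 difference of CD44KO(HFD) minus WT(HFD) with its standard error from limma (horizontal axis) for each tested probe (vertical axis) in liver and in WAT, 5 arrays per genotype and tissue. Filled points passed an adjusted p of 0.05. All 7 filled points are from liver and lie between -3.16 and -0.82, and 11 of the 12 WAT points lie left of 0 with wider errors. Both Cd8a points in liver, that at -3.16 included, rest on CD44KO(HFD) signals not well above background, so only a lower bound holds for their size.

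In WAT the same transcripts had lower means in CD44KO(HFD) mice, but none passed the adjusted threshold. Of 14 probes 12 were tested, 11 had a lower mean, beside 55.3% of the 27654 probes tested, and all 11 were lower by at least 1.5-fold, beside 18.9%. The median log2 difference was -1.50, beside -0.06 over all probes. By limma 0 of 12 passed an adjusted p of 0.05, as against 0.0398% of all probes (0.0289% lower and 0.0108% higher), and 7 had an unadjusted p under 0.05, against 6.6% of all probes in that direction. Exact permutation tests gave p under 0.05 for 4 probes. These tests were run on member probes only, so no share over all probes stands beside that count. The spread was wide because WT(HFD) arrays differed among themselves: replicate 5, and for several genes replicate 1, stood above replicates 2, 3 and 4.

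**Figure D3:**
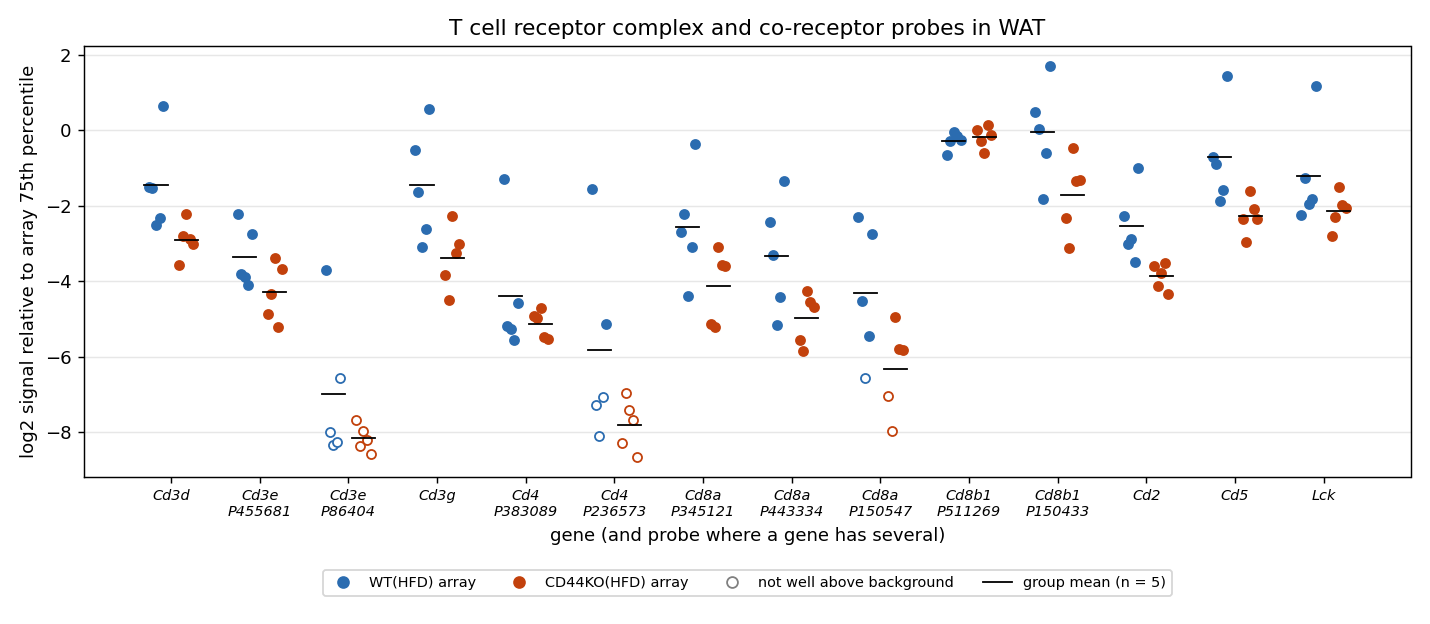
Log2 signal relative to the array 75th percentile (vertical axis) of the 14 probes (horizontal axis) on the 10 WAT arrays, drawn as for liver with open points for spots not well above background and a bar for the mean of 5 arrays. The WT(HFD) points spread over several log2 units for most genes, and only those of Cd2 lie wholly above the CD44KO(HFD) points.

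Cd2 read -2.28, -3.00, -2.87, -3.49 and -1.01 in WT(HFD) WAT and -3.59, -4.13, -3.79, -3.51 and -4.34 in CD44KO(HFD) WAT. It was the only member without overlap, which held for 2.07% of all probes in that direction, and the gap between WT(HFD) replicate 4 and CD44KO(HFD) replicate 4 was narrow. The log2 difference was -1.34 (SE 0.42, adjusted p = 0.217, limma, and exact permutation p = 0.00794).

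Cd3d read -1.49, -1.54, -2.50, -2.32 and 0.65 in WT(HFD) WAT and -3.58, -2.80, -2.21, -2.89 and -3.00 in CD44KO(HFD) WAT. Only CD44KO(HFD) replicate 3 reached into the WT(HFD) range, and WT(HFD) replicate 5 stood far above the rest. The means were -1.44 ± 1.25 and -2.90 ± 0.49 (SD, n = 5) and the log2 difference was -1.46 (SE 0.55, adjusted p = 0.267, limma, and exact permutation p = 0.0238).

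Cd3g read -0.52, -1.63, -3.09, -2.62 and 0.57 in WT(HFD) WAT and -3.83, -4.49, -2.26, -3.25 and -3.02 in CD44KO(HFD) WAT, a log2 difference of -1.91 (SE 0.69, adjusted p = 0.257, limma, and exact permutation p = 0.0476). WT(HFD) replicates 5 and 1 were highest and CD44KO(HFD) replicates 1 and 2 lowest. Cd3e, by A_51_P455681, read -2.21, -3.81, -3.88, -4.11 and -2.76 in WT(HFD) WAT and -4.87, -4.35, -3.38, -5.20 and -3.68 in CD44KO(HFD) WAT. The groups overlapped, with the same WT(HFD) pair on top, and the log2 difference was -0.94 (adjusted p = 0.366, limma).

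Cd8b1, by A_51_P150433, read 0.50, 0.05, -1.82, -0.60 and 1.72 in WT(HFD) WAT and -2.32, -3.13, -0.47, -1.35 and -1.32 in CD44KO(HFD) WAT. The range within each genotype exceeded the difference between their means of -1.69 (adjusted p = 0.292, limma, and exact permutation p = 0.0556). In processed signal the WT(HFD) arrays ran from 576 through 2060 to 8510 and the CD44KO(HFD) arrays from 177 through 788 to 1580. The Cd8b1 probe on chromosome 5 read -0.64, -0.27, -0.04, -0.14 and -0.26 in WT(HFD) WAT and 0, -0.27, -0.59, 0.13 and -0.12 in CD44KO(HFD) WAT, with no trace of the high WT(HFD) arrays, and differed by 0.10 (adjusted p = 0.784, limma).

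Cd8a, by A_51_P345121, read -2.70, -2.22, -4.39, -3.10 and -0.37 in WT(HFD) WAT and -5.14, -5.21, -3.09, -3.57 and -3.59 in CD44KO(HFD) WAT, with overlap through WT(HFD) replicate 3. Its 3 probes differed by -1.56 (A_51_P345121, adjusted p = 0.341), -1.65 (A_52_P443334, adjusted p = 0.304) and -2.0 (A_52_P150547, adjusted p = 0.323, limma). In WAT the trio of Cd8a probes ordered the arrays much alike, with WT(HFD) replicate 5 or 1 at the top and CD44KO(HFD) replicate 2 at the bottom of each.

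Cd5 read -0.70, -0.88, -1.88, -1.58 and 1.45 in WT(HFD) WAT and -2.34, -2.97, -1.61, -2.08 and -2.34 in CD44KO(HFD) WAT, a log2 difference of -1.55 (adjusted p = 0.259, limma, and exact permutation p = 0.0159). Only WT(HFD) replicate 3 fell below the top CD44KO(HFD) array. Lck read -2.25, -1.27, -1.96, -1.81 and 1.19 in WT(HFD) WAT and -2.79, -2.30, -1.51, -1.98 and -2.05 in CD44KO(HFD) WAT. Apart from WT(HFD) replicate 5 the groups were mixed, and the log2 difference of -0.91 (adjusted p = 0.482, limma) moved to -0.30 without that array. Cd4, by A_52_P383089, read -1.29, -5.19, -5.27, -5.56 and -4.58 in WT(HFD) WAT and -4.91, -4.97, -4.70, -5.49 and -5.53 in CD44KO(HFD) WAT. Its log2 difference of -0.74 (adjusted p = 0.62, limma) rested on WT(HFD) replicate 1 and was 0.03 without it. The second probes of Cd3e and Cd4 stood well above background on 1 and 2 arrays, all of them WT(HFD), and were not tested.

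Without WT(HFD) replicate 1 alone 0 of 12 WAT probes passed an adjusted p of 0.05 by limma. Without replicates 1 and 5 the WAT differences were smaller and still 0 of 12 passed, with Cd3d at -0.77, Cd3g at -0.93, Cd8b1 (A_51_P150433) at -0.93, Cd2 at -0.76, Cd5 at -0.82 and Lck at -0.45, all on the log2 scale. The Cd8a probes were then at -0.88 (A_51_P345121), -0.68 (A_52_P443334) and -0.80 (A_52_P150547), Cd3e at -0.36, Cd4 at 0.22 and the Cd8b1 probe on chromosome 5 at -0.02. On the WAT slide with 2 arrays of each genotype, WT(HFD) replicate 1 among them, 11 of 12 probes were lower (median log2 difference -1.50). On the slide with 3 WT(HFD) arrays, replicate 5 among them, and 1 CD44KO(HFD) array 10 of 12 were (median -0.79). The third slide held CD44KO(HFD) arrays only. Shares over all probes were not computed by slide, so these counts are a description only. In a fit that weights arrays by their noise 3 members fell, Cd3d by 1.27, Cd2 by 1.38 and Cd5 by 1.28 on the log2 scale (adjusted p = 0.0268, 0.015 and 0.0289, limma), where 19.1% of all probes passed. In a single fit of all 20 arrays 4 fell, Cd3d, Cd3g, Cd2 and Cd5 (adjusted p = 0.028 to 0.0483, limma), where 6.57% of all probes passed. That single fit left 1 of the 7 liver calls, Cd8a by A_51_P345121 (adjusted p = 0.00752, limma), where 2.93% of all liver probes passed.

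Within WAT arrays, Cd8b1 did not move apart from the other genes by more than the spread: minus Cd3d it differed by -0.23 between genotypes, minus Cd3g by 0.23, minus Cd5 by -0.14 and minus Lck by -0.78 (exact permutation p = 0.222 to 0.69).

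Other transcripts moved with these genes on the same WAT arrays. The summed linear level of the 9 genes, relative to the array percentile and with Cd8b1 read by A_51_P150433, ran from 1.38 to 12.8 on WT(HFD) arrays and from 0.799 to 2.15 on CD44KO(HFD) arrays. With Cd8b1 read by the brighter chromosome 5 probe these ranges were 2.07 to 10.4 and 1.51 to 2.09. The summed level of 11 B cell genes (Ms4a1, Cd79a and others) ran from 1.33 to 9.55 and from 1.05 to 1.96, with 11 of 11 well above background on WT(HFD) replicate 1, 10 on replicate 5, and 7 to 9 on the other WAT arrays. Plasma cell genes ran from 7.28 to 46.5 in WT(HFD) and from 3.64 to 6.33 in CD44KO(HFD), highest in replicate 5. Genes of lymph node stroma and follicles, a list that includes the lymphotoxin gene Ltb, ran from 5.19 to 27 and from 3.6 to 5.5. That list summed to 27 in WT(HFD) replicate 5 and to 6.19 in WT(HFD) replicate 1. Macrophage genes ran from 272 to 396 and from 288 to 368. The lymph node vessel genes Glycam1 and Madcam1 were at -0.57 and -2.80 in WT(HFD) replicate 1, both well above background, and on the other 9 WAT arrays they lay between -8.84 and -5.64 and between -7.80 and -4.92. Replicate 1 was also the array with the most spots well above background. In WT(HFD) replicate 5 Glycam1 and Madcam1 were at -6.00 and -6.98, Madcam1 not well above background, while the lymphotoxin gene Ltb was at 3.83 and the plasma cell gene Jchain at 5.01. The part of these cell types in the WAT differences was not tested.

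**Figure D4:**
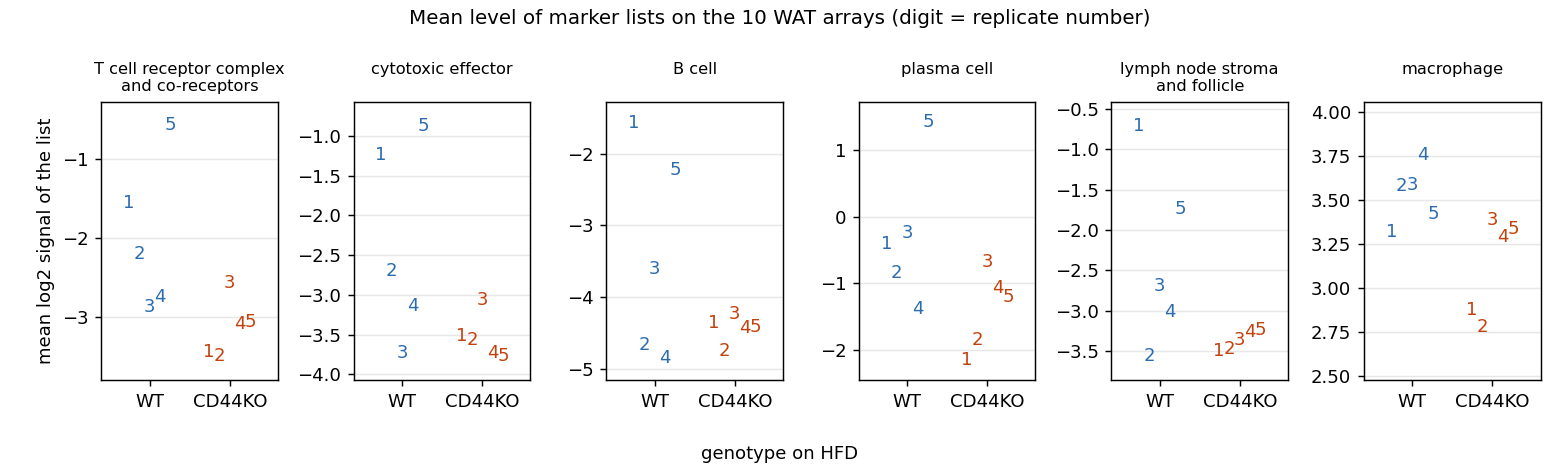
Mean log2 signal relative to the array 75th percentile (vertical axes, each panel on its own scale) of the 9 T cell genes and of 5 other marker lists, each gene read by its brightest probe (for Cd8b1 the one on chromosome 5), for WT(HFD) and CD44KO(HFD) WAT (horizontal axis). Each digit is the replicate number of 1 array. Replicates 5 and 1 of WT(HFD) are the highest arrays for T cell, cytotoxic, B cell and lymph node lists but not for macrophage genes.

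Whether the effect of genotype differed between liver and WAT was tested by an interaction term in a fit of all 20 arrays. Of the 12 member probes 0 passed an adjusted p of 0.05 (limma, adjusted p = 0.306 to 1), as against 1.15% of 28989 probes, and 1 had an unadjusted p under 0.05, against 15.8% of all. That was Cd2, whose WAT difference was 1.03 log2 units below its liver difference (SE 0.48, adjusted p = 0.306, limma). For Cd3e (A_51_P455681) this value was -1.06 (adjusted p = 0.331, limma). For Cd8a no size is given, since its liver difference is a bound.

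Set against each other, WT(HFD) WAT and WT(HFD) liver differed for 5 of 12 probes, where 70.5% of all probes differed (34.3% higher and 36.2% lower in WAT). Relative to the array percentile, Cd3g was higher in WAT by 1.78 (SE 0.54, adjusted p = 0.00678, limma), Cd2 by 1.20 (SE 0.34, adjusted p = 0.00416) and Cd5 by 1.18 (SE 0.45, adjusted p = 0.0244). Cd3e by A_51_P455681 went the other way, lower in WAT by -3.44 (SE 0.37, adjusted p = 1.19e-07, limma), and so did Cd4 by A_52_P383089 at -1.29 (SE 0.55, adjusted p = 0.045). The Cd4 call was kept without WT(HFD) WAT replicate 1 or WT(HFD) liver replicate 1 and lost without any other single array, and the Cd5 call was lost without WT(HFD) WAT replicate 5 (0.64, adjusted p = 0.055, limma). Of the CD3 chains, Cd3g thus read higher and Cd3e lower in WAT, and Cd3d, at 0.68 (adjusted p = 0.166, limma), did not pass.

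The members also differed in how their signals went together from array to array within a genotype. With genotype means removed, over the 10 arrays of a tissue, Cd8b1 A_51_P150433 followed the mean of the 3 CD3 genes with r = 0.81 in liver and 0.89 in WAT, and Lck with 0.83 and 0.73. Cd5 followed it with r = 0.89 in WAT and -0.40 in liver, and Cd4 A_52_P383089 with 0.46 and -0.39. The Cd8b1 probe on chromosome 5 followed Cd8b1 A_51_P150433 with r = 0.60 in liver and -0.43 in WAT, the nearer Mlec probe with 0.67 and 0.74, the other Mlec probe with 0.29 and 0.48, Cd3e with 0.76 and -0.84 and Cd3d with 0.62 and -0.39. All points of one tissue share slides and scaling, and these r describe 10 arrays only.

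**Figure D5:**
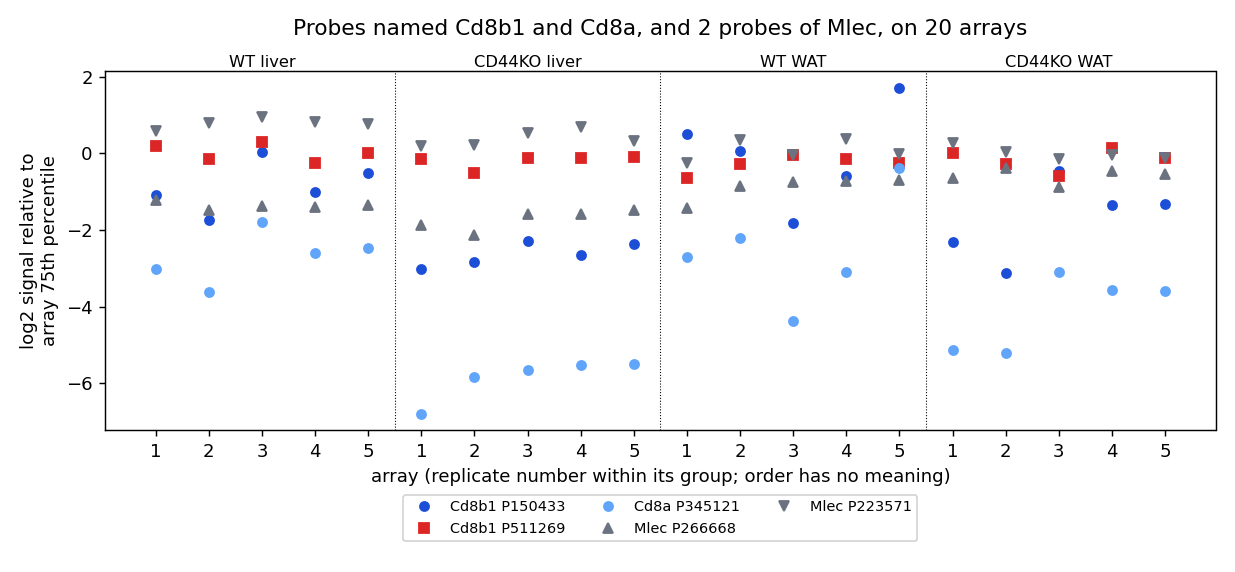
Log2 signal relative to the array 75th percentile (vertical axis) of both Cd8b1 probes, of Cd8a A_51_P345121 and of 2 Mlec probes on the 20 arrays (horizontal axis, by group and replicate number). Cd8b1 A_51_P150433 and Cd8a cover wide ranges across the arrays, from -3.13 to 1.72 and from -6.80 to -0.37, while Cd8b1 A_52_P511269 stays between -0.64 and 0.29.

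The probes most like the mean of Cd3d, Cd3e and Cd3g over the 10 arrays of a tissue, genotype means removed, were sought among named probes well above background on at least 8 arrays. In liver, among 18897 such probes, they were Hdac3 (r = 0.97), Lactb2 (0.96), Tfap4 (0.96), Mgmt (0.95) and Mtres1 (0.95). In WAT, among 20997, they were the Ly49 receptor genes Klra23 (0.98), Klra21 (0.97) and Klra16 (0.96), the interleukin 12 receptor gene Il12rb1 (0.96) and Zfpn1a3 (0.96), the file's older name for the lymphocyte factor Ikzf3.

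Beyond the receptor itself, 22 of 30 genes of receptor signalling and costimulation were bright enough to test in liver, and 7 fell and 1 rose, beside 5.75% and 7.85% of all liver probes, with a median log2 difference of -0.18 beside 0.08 for all probes. The adaptor Lat, which links the receptor to downstream enzymes, fell by 0.75 (SE 0.15, adjusted p = 0.0182, limma), and the T cell surface protein Thy1 by 0.72 (adjusted p = 0.0124). Ptpn22, Cd27 and Cd6 also fell, by 0.75, 0.56 and 0.43. The costimulator Icos rose by 0.90 (adjusted p = 0.0129, limma). Zap70, the kinase that docks on the CD3 chains, differed by 0.28 (adjusted p = 0.515, limma). Of the 12 listed symbols of receptor chains 4 were on the array, Cd247 among them, and 0 of those were bright enough to test in liver. A beta chain segment outside that list, Tcrb-V13, chosen after its values were seen, had 3 probes bright enough, which differed by -0.64 (A_51_P407832, adjusted p = 0.0604), -0.77 (A_51_P478172, adjusted p = 0.0309) and -0.69 (A_52_P102846, adjusted p = 0.0392, limma) in liver.

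Several cytotoxic effector genes were also lower in liver. Of 9 tested, 6 fell and 0 rose, where 5.75% of all liver probes were called lower and 7.85% higher, with a median log2 difference of -1.49: the chemokine Ccl5 by 2.11, the granzymes Gzmb by 1.88 and Gzma by 1.49, the pore protein Prf1 by 1.69, the granule protein Nkg7 by 1.32 and the protease Ctsw by 0.40 (limma, adjusted p = 0.012 to 0.0462). In CD44KO(HFD) liver Gzma and Prf1 were well above background on 1 array each, so the sizes of their differences rest mostly on signals near background. Gzma, Prf1 and the uncalled Gzmk entered the test through WT(HFD) alone, and the uncalled Fasl through CD44KO(HFD) alone. Of the called genes, Ccl5, Gzmb, Nkg7 and Ctsw were bright enough in both genotypes. Of the transcription factors 1 of 9 fell, Tbx21, the master factor of type 1 responses, by 0.58 (adjusted p = 0.0249, limma; list median -0.09). Among naive and memory genes the chemokine receptors Ccr7 and Cxcr3 fell by 1.08 and 0.61 and S1pr1, which T cells share with endothelium, rose by 0.65 (8 tested, median -0.18). Of 4 regulatory T cell genes tested, Tnfrsf18 fell by 0.88, while Foxp3 was too dim to test (list median -0.29). Some symbols stand in more than 1 of these lists (Ctla4, Foxp3, Eomes and Cr2).

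Markers of other cells that share these transcripts were read in the same liver fit, to be set beside the same 5.75% lower and 7.85% higher of all probes. NK cells also make Prf1, the granzymes and Cd2: 3 of 11 NK genes were tested and Cd244a and Klrd1 fell by 1.02 and 0.97, but 7 of the 11 were not well above background on any WT(HFD) liver array. Of 7 B cell, 5 plasma cell and 9 macrophage genes tested, 0 passed an adjusted p of 0.05 by limma (list medians 0.06, -0.16 and -0.15). Of 7 dendritic cell genes 1 fell, Itgax, by 2.01 (adjusted p = 0.0284, limma; list median 0.02). Of 5 lymph node genes the T cell zone chemokine Ccl19 and Ltb fell by 1.22 and 0.73, and the follicle chemokine Cxcl13 rose by 3.95 from a group in which 1 of 5 arrays was well above background (list median -0.30). Of 5 hepatocyte genes 0 passed (median 0.30), and of 2 adipocyte genes Cidec, a lipid droplet gene that fatty liver also expresses, fell by 2.12 (adjusted p = 0.0486, limma; list median -1.05). The share of each cell type in these differences was not tested.

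In WAT 0 genes of any of these lists passed the adjusted threshold in limma. The list medians were -0.61 for receptor chains (3 tested), -0.65 for signalling and costimulation (28), -0.73 for transcription factors (12), -0.52 for naive and memory genes (9), -0.51 for regulatory T cell genes (4) and -1.19 for cytotoxic effectors (10), beside -0.06 for all probes. They were -1.05 for B cell, -0.83 for plasma cell, -0.87 for lymph node, -0.60 for dendritic cell, -0.44 for macrophage and -0.17 for NK cell genes, and 0.64 and 0.87 for adipocyte and hepatocyte genes. The largest unadjusted evidence among signalling genes named here was that of Lat, -1.08 ± 1.34 in WT(HFD) and -2.66 ± 0.13 in CD44KO(HFD) (SD, n = 5, adjusted p = 0.242, limma), and of Zap70, -2.23 ± 1.41 and -3.70 ± 0.33 (adjusted p = 0.292, limma).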

How the data were processed

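RNA of liver and WAT from WT(HFD) and CD44KO(HFD) mice was read on 20 single-dye Agilent arrays, 5 per group, and samples were grouped by the labels. The authors deposited scanner files of linear spot intensity with marks of other kinds (well above background, outlier), made with Feature Extraction 9.5 per the labels (9.5.3.1 per the file headers), and a series table whose processed signals were equal to them on 20 of 20 arrays. In that signal a fitted spatial surface had been subtracted, trends divided out and the dimmest values replaced by estimates, which bears on dim probes such as those of Cd8a. No scaling between arrays had been done. Of the columns of values 0 were left without a sample.

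Here log2 of the processed signal minus the 75th percentile of each array was used, without outlier spots and averaged over the spots of a probe. Probes entered a test if at least 3 of the 5 arrays of a compared group were well above background, and were tested with limma 3.58.1 in R 4.3.3 (lmFit, eBayes, Benjamini-Hochberg adjustment over all probes tested, threshold 0.05), genotypes within each tissue and the interaction and tissue contrasts in a fit of 20 arrays. For single probes all 252 relabellings of the arrays gave an exact two-sided permutation p (smallest p = 0.00794). Where 0 arrays of a group were well above background, the fold is a lower bound. The package data.table (version 1.17.8) handled the tables, array weights and slide blocks with statmod 1.5.0, figures with matplotlib 3.10.9, and the fits were tested on simulated data. The number of arrays limits the precision.

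All probes of the 9 genes are described. Of each list, up to 6 called genes of largest change are named by the brightest probe, some of which are not reported here, and other genes where needed (Zap70, Cd247, Madcam1, Glycam1, Jchain, Ltb and Mlec were named after their values were seen). The members and lists were chosen with earlier results of these data known, and the differences between genes within an array were chosen after seeing the values. Alternatives were background correction, scaling, filter, slide, replicate number, array weights, 1 fit of all arrays and each array left out. Replicate numbers do not pair the arrays: WT(HFD) and CD44KO(HFD) arrays of one number deviated together with r from -0.04 to 0.34 in liver (3 of 5 over 0.1) and from -0.21 to 0.12 in WAT (1 of 5).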

Additional observations from a re-analysis of the deposited data

Results flagged for a closer look

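Among 46 sets of 5 arrays (a member probe in a group), 4 (8.7%) held an array whose gap to the next exceeded 0.71 of the range of the set, where chance gives about 1 in 20. The Cd4 probe A_52_P383089 read -1.29 in WT(HFD) WAT replicate 1, far above the next array at -4.58. Lck read 1.19 in WT(HFD) WAT replicate 5, and the next array was at -1.27. On the low side, Cd8a A_51_P345121 read -6.80 in CD44KO(HFD) liver replicate 1, below the next at -5.85 and not well above background on any array of that group. The Cd8b1 probe on chromosome 5, A_52_P511269, read -0.50 in CD44KO(HFD) liver replicate 2, below the next at -0.16. For 0 member probes did the interaction test or wholly opposite directions set the genotype effect in WAT apart from that in liver.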

How the results depend on the processing

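The count of member probes called in liver, 7, was 1 under normexp and 1 in a single fit of all 20 arrays, 6 with the replicate number as a block (Cd5 lost), 5 with no filter, and 5 to 7 without 1 array. In WAT 0 became 4 in the single fit and 3 with array weights, and was 0 with the block and without any 1 array. The interaction count of 0 became 1 with array weights (Cd8a A_51_P345121) and was 0 without any 1 array. The tissue count of 5 was 2 under normexp, 3 after quantile normalization, 4 with the block and 3 to 6 without 1 array (3 without WT(HFD) WAT replicate 5). Exact tests under 0.05 went from 7 to 1 in liver under normexp, and in WAT from 4 to 9 under normexp, 2 after quantile normalization and 0 when centred on the median, which moved the median difference of all WAT probes from -0.06 to 0.42. The exact tests covered member probes only, without a share over all probes. Directions turned for Cd2 in liver under normexp (0.12), for Cd8b1 A_52_P511269 in WAT with slide as a block (-0.06) and without WT(HFD) replicates 1 and 5 (-0.02), for Cd4 in WAT without replicate 1 (0.03, in a range from -1.04 without 1 array) and without both (0.22), for the interaction of Cd8a A_51_P345121 under normexp (-0.62), and in WAT for Cd8b1 minus Cd3g after quantile normalization (-0.05), minus Cd3d (0.14, range from -0.41) and minus Cd5 (0.04, range from -0.30) without CD44KO(HFD) replicate 2. The cause was not tested. Of all probes, 3358 calls in liver (42.3% lower) became 641 under normexp (66.3% lower), 1027 with no filter (56.3%), 1329 with the block (51.3%) and 723 in the single fit (74.4%). The 11 in WAT became 35 under normexp, 19 centred on the median, 3 with no filter, 4 with slide, 3 with the block, 3 with CD44KO(HFD) replicates 4 and 5 averaged, 1817 in the single fit and 5292 with array weights. The 334 of the interaction became 20 centred on the median, 77 with no filter, 86 with the block and 3302 with array weights. Leaving out WT(HFD) WAT replicates 1 and 5 together, averaging the CD44KO(HFD) pair, and all settings for differences within an array were chosen after seeing the data. Signal over background limits Cd8a in liver, where 0 CD44KO(HFD) arrays were well above it.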

Other observations

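Between CD44KO(HFD) WAT replicates 4 and 5 the median absolute log2 difference over bright probes was 0.083 (r = 0.991), against 0.179 to 0.389 for the other pairs of that group. Replicate pairs of liver arrays lay between 0.082 and 0.167, and pairs of WT(HFD) WAT arrays between 0.115 and 0.191. These values cannot tell whether CD44KO(HFD) WAT replicates 4 and 5 came from separate mice, and they were kept as 2 samples by their labels. With both averaged as 1 sample, 0 member probes passed in WAT and 6 had an unadjusted p under 0.05. Cd8a A_52_P443334 was, like the Cd4 probe, spotted 10 times on each array, and its spots spread with a median SD of 0.45 on the log2 scale on liver arrays and 0.16 on WAT arrays.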
